A study of Mus musculus with 47 samples.

Results

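The 10 genes described here, Bax, Bbc3, Pmaip1, Apaf1, Fas, Tnfrsf10b, Eda2r, Perp, Aen and Trp53inp1, are targets of the transcription factor p53 that take part in apoptosis, and they were taken by symbol. All 10 were found among the 24507 genes listed for unsorted mouse embryonic stem cells (ESCs) and embryoid bodies (EBs) and among the 26182 genes listed for sorted ESCs. The series title names a role of thymine DNA glycosylase (TDG) in p53 activity driven by the cell cycle, and TDG excises thymine and oxidised methylcytosine from DNA during base excision repair. Of its 47 samples, 20 RNA libraries in 10 groups of 2 were used. The cells were E14Tg2A, a single ESC line, kept in serum-free N2B27 medium with the MEK inhibitor PD0325901, the GSK3 inhibitor CHIR99021 and leukemia inhibitory factor. They had received an siRNA against Tdg (siTdg) or a control siRNA (siC), which the series describes as wild type. For each siRNA there were ESCs at 48 h, ESCs at 96 h, ESCs sorted as G2M, ESCs sorted as G1, and EBs at day 11. The labels give no time after siRNA for the sorted cells. EBs are aggregates in which ESCs differentiate into a mixture of cell types.

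Apoptosis set off by p53 runs along a mitochondrial and a death receptor route. In the mitochondrial route BH3-only proteins, among them PUMA (encoded by Bbc3) and NOXA (encoded by Pmaip1), bind BCL2 proteins that protect the cell, BAX opens the outer membrane, and released cytochrome c joins APAF1 in the apoptosome that activates caspases. Fas and Tnfrsf10b encode receptors with a death domain, for FAS ligand and TRAIL, and Eda2r encodes a receptor of the same superfamily that binds ectodysplasin A2. Perp encodes a membrane protein that epithelia also need for desmosomes, Aen a nuclease, and Trp53inp1 a stress protein that acts with p53.

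Promoter windows from 250 bases before to 50 bases after the gene start were held for 6 of the 10 genes, 9 windows in all, in RefSeq on build GRCm38.p6. They were searched for the 10-base repeat unit of the p53 response element, by its consensus, which reads the same on both strands. It was found in 3 of the 9 windows, 1 of Bax and 2 of Aen that overlap, and in 8.36% of all 32851 windows in the table. The windows of Bbc3, Apaf1, Fas and Eda2r held no match. The windows of Bax (chr7:45466849-45467148, minus strand) and of Aen (chr7:78895808-78896107, plus strand) are shown for the match, which stands in capitals, and that of Fas (chr19:34290409-34290708, plus strand) because Fas had the widest range of levels.
Bax: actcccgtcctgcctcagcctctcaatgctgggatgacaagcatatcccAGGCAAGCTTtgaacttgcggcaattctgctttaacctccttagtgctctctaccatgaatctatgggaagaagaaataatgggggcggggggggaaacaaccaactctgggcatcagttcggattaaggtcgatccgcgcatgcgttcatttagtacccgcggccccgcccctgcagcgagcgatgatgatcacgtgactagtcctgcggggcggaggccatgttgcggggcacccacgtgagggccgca
Aen: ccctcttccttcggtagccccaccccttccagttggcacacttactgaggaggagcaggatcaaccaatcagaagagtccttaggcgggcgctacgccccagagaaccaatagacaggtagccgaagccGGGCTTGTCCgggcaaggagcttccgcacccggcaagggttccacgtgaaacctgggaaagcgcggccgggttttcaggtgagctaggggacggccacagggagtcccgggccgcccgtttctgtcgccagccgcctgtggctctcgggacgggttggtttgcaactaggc
Fas: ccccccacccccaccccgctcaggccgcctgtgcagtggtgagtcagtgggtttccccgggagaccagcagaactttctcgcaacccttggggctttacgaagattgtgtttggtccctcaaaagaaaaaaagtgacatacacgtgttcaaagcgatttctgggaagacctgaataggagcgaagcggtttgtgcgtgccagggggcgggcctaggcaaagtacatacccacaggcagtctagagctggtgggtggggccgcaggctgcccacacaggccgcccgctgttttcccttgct
The match began 201 bases before the gene start in Bax and 121 bases before it in the Aen window shown. In CpG dinucleotides the 9 windows ranged from 5 in Eda2r to 46 in Apaf1, with 19 in Bax, 21 in the Aen window shown and 14 in Fas, against a median of 7 over all windows.

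Levels are RPKM, here reads per unit of gene length and of a size factor per library, set by the authors separately in each table. In EBs these factors were not proportional to the read totals. Replicates 1 and 2 of siC had size factors of 1.63 and 0.639, and 38825128 and 21775039 reads. Reads assigned to genes ranged from 20818174 to 41433232 per library. Nothing in the labels says that replicates were separate cultures, and p-values therefore reflect only library-to-library spread, which may be technical. Tdg was at 7.34 and 13.2 RPKM with siTdg, against 46.0 and 43.4 with siC, at 48 h. At 96 h it was at 28.2 and 40.3 RPKM with siTdg, against 35.8 and 46.0 with siC, ranges that overlap. In sorted ESCs Tdg ranged from 7.53 to 12.3 RPKM over the 4 siTdg libraries and from 54.8 to 63.1 RPKM over the 4 siC libraries. In EBs it was at 37.3 and 43.7 RPKM with siTdg, against 35.1 and 38.5 with siC, so the EB libraries labelled siTdg had no lower Tdg. All 8 pluripotency markers listed (Pou5f1, Nanog and others) were at 1 RPKM or more in each of the 16 ESC libraries, where their summed level ranged from 3552 to 7707 RPKM.

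The 10 genes covered a wide range of levels in ESCs, and their order was led by Bax. Bax, the membrane-opening effector, had the highest level in every group and did not overlap the next gene in any. At 48 h Bax was at 254.1 and 276.4 RPKM with siTdg, against 296.5 and 265.3 with siC. At 96 h it was at 260.4 and 309.2 RPKM with siTdg, against 269.6 and 325.7 with siC. Aen and Trp53inp1 followed, at 71.8 to 101 RPKM and 52.6 to 96.7 RPKM over the 8 unsorted ESC libraries, and the ranges of these neighbours overlapped. Tnfrsf10b, Perp, Apaf1, Eda2r and Bbc3 formed a middle band between 6.59 and 21.7 RPKM whose ranges overlapped one another. Pmaip1, which encodes the BH3-only protein NOXA, lay below them at 1.80 to 3.09 RPKM. Fas came last at 0.234 to 0.569 RPKM, which rested on 12 to 30 reads per library. The death receptors were therefore unlike in unsorted ESCs, with Tnfrsf10b at 15.8 ± 3.59 RPKM and Fas at 0.381 ± 0.114 RPKM (SD over 8 libraries each).

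**Figure D1:**
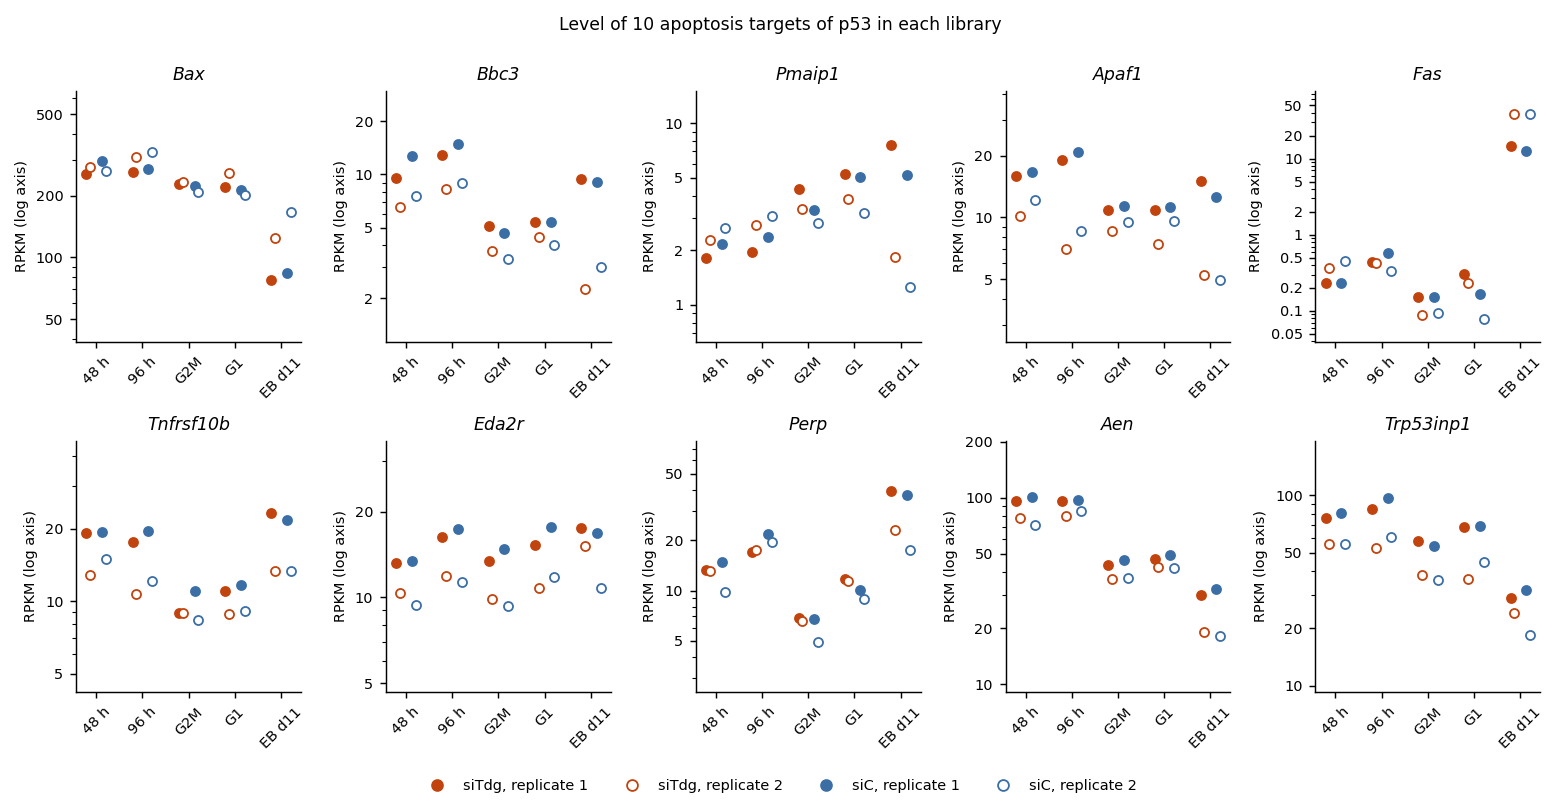
Level of each gene in each of the 20 libraries (RPKM, log axis that differs between panels), with siTdg in red left of siC in blue and replicate 1 filled and replicate 2 open. Fas lies at 12.6 to 39.1 RPKM in EBs and at most 0.569 in every ESC library, while Bax, Aen and Trp53inp1 are lowest in EBs. Sorted levels of Aen and Bbc3 rest on other gene lengths than their levels in unsorted ESCs and EBs.

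In EBs at day 11 no gene clearly led after Bax, whereas in unsorted ESCs Aen and Trp53inp1 did. With siC, Perp, Fas, Aen and Trp53inp1 averaged 27.3, 25.8, 25.2 and 25.1 RPKM in EBs, and neighbours in this order overlapped. Levels of EBs and ESCs come from tables scaled separately and carry no test, and in a mixture of cells fewer cells of a type and less RNA per cell cannot be told apart. Fas was at 14.6 and 38.7 RPKM in siTdg EBs and at 12.6 and 39.1 RPKM in siC EBs, so that the lowest EB library was 22.1 times the highest unsorted ESC library. The mean of the 4 EB libraries was 26.3 RPKM for Fas, against 0.381 over the 8 unsorted ESC libraries. Aen, the nuclease gene, averaged 24.9 ± 7.30 RPKM in EBs (SD, 4 libraries) and 88.3 ± 10.9 RPKM in unsorted ESCs (SD, 8 libraries), a level 3.55 times as high in ESCs. Trp53inp1 averaged 25.7 ± 5.75 RPKM in EBs and 70.3 ± 16.5 RPKM in ESCs, 2.73 times as high in ESCs. Bax averaged 112.8 ± 40.8 RPKM in EBs and 282.2 ± 25.5 RPKM in ESCs, 2.50 times as high in ESCs. EB and unsorted ESC libraries did not overlap for Fas, Aen, Trp53inp1 and Bax, and overlapped for the others. The share of all genes without such overlap was not computed, so this is a description of single genes. Perp averaged 29.3 ± 10.6 RPKM in EBs and 15.8 ± 3.85 RPKM in ESCs, and its lowest EB library at 17.6 RPKM lay under its highest ESC library at 21.7 RPKM.

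Within EBs, libraries were set apart by replicate number. Pmaip1 was at 7.55 RPKM in siTdg replicate 1 and 1.83 in siTdg replicate 2, and at 5.18 and 1.25 RPKM in the same order with siC, a ratio of the replicate means of 4.13. The same ratio was 3.51 for Bbc3, 2.72 for Apaf1, 1.88 for Perp, 1.68 for Tnfrsf10b, 1.67 for Aen, 1.42 for Trp53inp1 and 1.33 for Eda2r, each higher in replicate 1. Fas and Bax ran the other way, with replicate 2 at 2.86 and 1.79 times replicate 1. Bax was at 77.3 and 124.1 RPKM in siTdg EBs, against 84.2 and 165.7 RPKM in siC EBs. Summed levels of cell type markers also differed between the same libraries. The summed level of 5 mesenchyme markers (Col1a1 and others) was 6124 RPKM in siTdg replicate 1 and 671.4 in replicate 2, against 4618 and 800.8 RPKM with siC. That of 7 erythroid markers (Hbb-bh1 and others) was 12.2 and 737.5 RPKM with siTdg, against 5.62 and 321.8 RPKM with siC. Over 9 epithelial markers it was 786.6 and 248.3 RPKM with siTdg, against 616.9 and 251.4 RPKM with siC. Members of that list differed in direction. Krt8 was at 314.6 and 76.9 RPKM with siTdg and 250.1 and 82.0 with siC, and Cdh1 was also higher in replicate 1. Epcam was higher in replicate 2, at 11.3 and 15.9 RPKM with siTdg and 10.0 and 13.5 with siC. None of these markers was at 0 in an EB library, and the part of cell mixture in the levels of the 10 genes was not tested.

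Replicate number also marked the levels in ESCs. In all 10 groups replicate 1 was above replicate 2 for Bbc3, Apaf1, Tnfrsf10b, Eda2r, Aen and Trp53inp1, 6 of the 10 genes, where 12.1% of the 10610 genes that averaged 0.5 RPKM or more in each set of libraries did so. Perp had replicate 1 higher in 9 groups, Pmaip1 and Fas in 6 each, and Bax in 3. Among ESC groups the ratio of the replicates was widest for Apaf1 at 96 h, with 19.1 and 7.04 RPKM with siTdg, against 20.7 and 8.64 with siC. Aen and Trp53inp1 ran together over the 20 libraries, with a Pearson r of 0.901 on log2(RPKM + 0.5), and Bbc3 and Apaf1 had an r of 0.811. Bax and Perp had an r of −0.52. These correlations cover libraries that share stage, replicate number and scaling, and are a description. For Aen and Bbc3 the gene length behind RPKM also differed between sorted and other libraries, which enters their r values. In replicate 1 of siC at 48 h Aen had 9266 reads at 101.2 RPKM, and Trp53inp1 15519 reads at 80.5 RPKM. In replicate 1 of siC G1 Aen had 8401 reads at 49.4 RPKM, and Trp53inp1 12474 reads at 68.9 RPKM. Of 10610 genes, those with the pattern most like Perp over the 20 libraries were Gpx3 (r = 0.941), Rassf1 (r = 0.930) and Azin2 (r = 0.930). For Bax they were Dus1l (r = 0.985), Gsta4 (r = 0.983) and Pycard (r = 0.981), for Bbc3 Ephx1, Lif and Map3k20 (r from 0.939 to 0.954), and for Aen Ephx2, Inpp5k and Plekhg1 (r from 0.966 to 0.967).

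Between phases of the cell cycle, Perp was lower in G2M than in G1, and the other genes did not pass the test in a model without replicate number. Perp was at 6.84 and 6.58 RPKM in siTdg G2M cells, against 11.8 and 11.4 RPKM in siTdg G1 cells. With siC it was at 6.75 and 4.94 RPKM in G2M, against 10.1 and 8.92 RPKM in G1. All 4 G2M libraries lay below all 4 G1 libraries, and the ratio of G2M to G1 ranged from 0.554 to 0.671 over the 4 pairs of libraries with the same number and siRNA. Phases were compared with limma on log2(RPKM + 0.5) over the 12462 genes averaging 0.5 RPKM or more, and calls are at a Benjamini-Hochberg adjusted p under 0.05. For the mean over both siRNAs, Perp fell by 0.71 on that log2 scale (SE 0.105, 95% CI −0.96 to −0.46, limma adjusted p = 0.0370), the single call among 9 genes tested, where 1.4% of all genes were called and 0.473% were called lower. Fas, at 4 to 15 reads per sorted library, did not pass the filter on low values. With 1 library left out, the Perp difference ranged from −0.81 to −0.60 in log2 and its limma adjusted p from 0.0486 to 0.185, and the call held without replicate 1 of siC G2M and was lost without any other library. Without the filter the adjusted p of Perp was 0.0616 by limma. An exact permutation test over the 8 libraries, two-sided, gave p = 0.0286 for Perp, the smallest this design allows and reached by 1704 genes (adjusted p = 0.209).

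**Figure D2:**
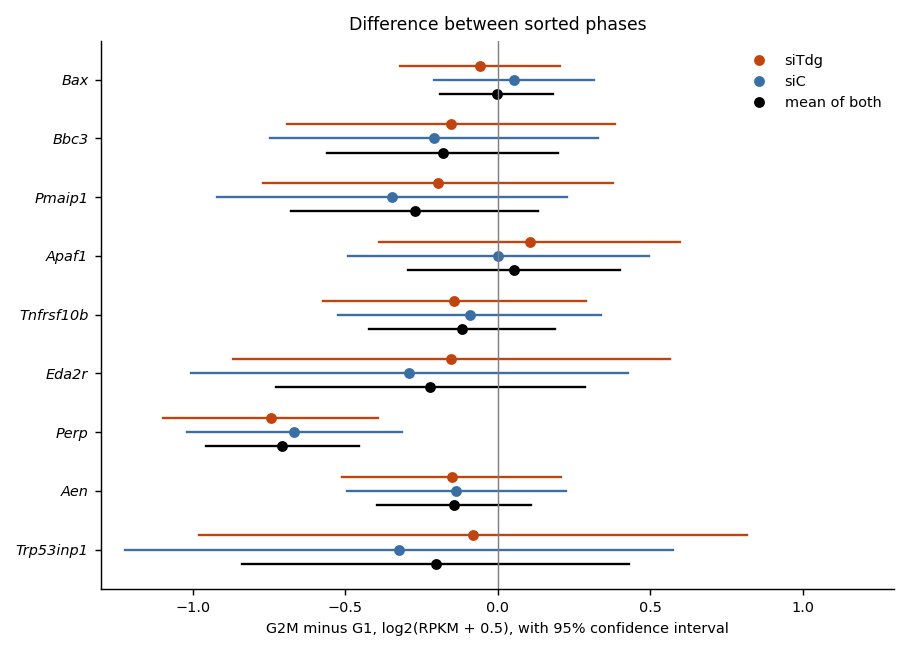
G2M minus G1 for the 9 genes tested, in log2(RPKM + 0.5) with 95% confidence intervals, for siTdg (red), siC (blue) and their mean (black). The 3 intervals of Perp lie below 0, and those of the other 8 genes include 0.

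Each siRNA alone gave a like size for Perp without passing the test. The log2 difference was −0.74 with siTdg (SE 0.149, limma adjusted p = 0.205) and −0.67 with siC (SE 0.149, limma adjusted p = 0.267), with 0.169% and 0.12% of 12462 genes called in those comparisons. The phase difference with siTdg minus that with siC was −0.08 for Perp (95% CI −0.58 to 0.42, limma adjusted p = 1), and no gene was called in that test, with 36 at an unadjusted p under 0.05 and 0 called by limma-voom. In the authors' deposited table for siC, which used their own model, Perp was −0.71 (adjusted p = 0.00187), Trp53inp1 −0.33 (adjusted p = 2.02e-05) and Eda2r −0.30 (adjusted p = 0.0130), 3 of 9 genes with an adjusted p, where 8.48% of genes passed. Their deposited table for siTdg had Perp at −0.79 as the single call among 9 (5.02% of genes passed). A further deposited table by the authors compares S, G2 and M with G1 at 0 h, and there Perp was −0.53 (adjusted p = 0.0113) and Aen 0.24 (adjusted p = 0.0288), where 11.6% of genes passed. In that table Aen was higher outside G1, whereas in the sorted libraries its ratio of G2M to G1 was below 1 in each of the 4 pairs, from 0.868 to 0.935. Bbc3 was also above 0 there, at 0.17 (authors' adjusted p = 0.550). Eda2r was at −0.007 (authors' adjusted p = 0.978) and Pmaip1 at −0.32 (authors' adjusted p = 0.470).

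The BH3-only genes had G2M levels below G1 in each same-numbered pair, and neither was called in the model without replicate number. Pmaip1 was at 4.37 and 3.36 RPKM in siTdg G2M cells, against 5.22 and 3.81 RPKM in siTdg G1 cells, and at 3.33 and 2.83 RPKM in siC G2M cells, against 5.09 and 3.19 RPKM in siC G1 cells. Its log2 difference was −0.27 (SE 0.171, limma adjusted p = 0.482). Bbc3 ranged from 3.33 to 5.14 RPKM in G2M and from 3.99 to 5.38 RPKM in G1, with a log2 difference of −0.18 (limma adjusted p = 0.648). Bax showed the narrowest interval, from −0.19 to 0.18 in log2, with 208.9 to 233.5 RPKM in G2M and 202.8 to 259.2 RPKM in G1. Apaf1, the apoptosome scaffold, was at 0.05 (95% CI −0.30 to 0.40). The receptor genes Tnfrsf10b and Eda2r were at −0.12 and −0.22, Aen at −0.14 and Trp53inp1 at −0.20, none called by limma in that model. Same-numbered sorted libraries deviated together from their group means, with a Pearson r of 0.557 to 0.72 over genes. With replicate number as a block, limma called Pmaip1 (SE 0.0752, adjusted p = 0.0382) and Eda2r (adjusted p = 0.0236) lower in G2M beside Perp, left Bbc3 uncalled (adjusted p = 0.0699), and called 20.7% of all genes. Of the 9 genes 8 lay below 0, with a median of −0.18 against 0.019 over all genes tested. With 1 library left out 7 to 9 lay below 0, with a median from −0.29 (without siC G2M replicate 1) to −0.06 (without siC G2M replicate 2). Perp alone had no overlap between the 4 G2M and the 4 G1 libraries, which 13.7% of genes had. G2M below G1 in each of the 4 pairs held for Aen, Bbc3, Eda2r, Perp and Pmaip1, against 19.5% of genes.

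**Figure D3:**
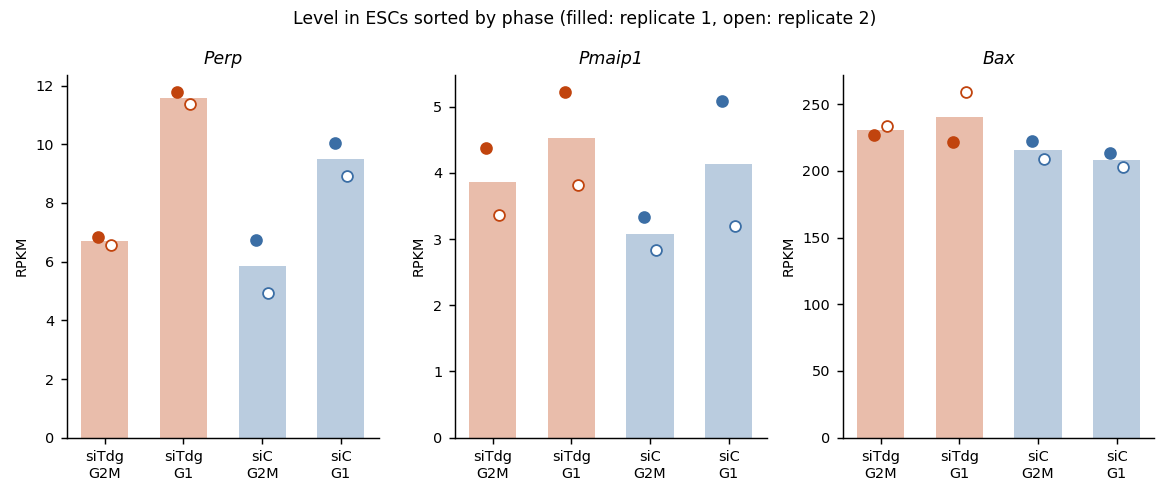
Level of Perp, Pmaip1 and Bax in ESCs sorted by phase (RPKM, linear axis from 0), with bars at the mean of 2 libraries and points for the libraries (replicate 1 filled, replicate 2 open). Perp is at 4.94 to 6.84 RPKM in the 4 G2M libraries and at 8.92 to 11.8 RPKM in the 4 G1 libraries, and the phases overlap for Pmaip1 and Bax.

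Genes of the cycle itself separated the phases. Of 8 markers of G2 and M, 7 rose in G2M by limma (Top2a, Aurkb, Prc1, Kpna2, Plk1, Ccnb1 and Cdk1), with a median of 1.33 in log2 over the 8. Of 6 genes of G1 and entry to S, Cdc6 and Ccne2 fell. Among 14 tested of 15 other p53 targets linked to apoptosis (Zmat3, Phlda3 and others), 0 were called, 7 above and 7 below 0, with a median of −0.02. Likewise 0 of 10 BCL2 family genes, 0 of 18 apoptosome and caspase genes, 0 of 12 death receptor pathway genes and 0 of 13 genes of p53 and its direct regulators were called by limma. With 1.4% of all genes called, counts of 0 in lists of these sizes are near the background. Outside apoptosis, Cdkn1a, the cell-cycle inhibitor p21, was at −0.29 (limma adjusted p = 0.139) and Mdm2, the ubiquitin ligase of p53, at −0.30 (limma adjusted p = 0.419). Trp53, which encodes p53, was at 0.08 (limma adjusted p = 0.616), and none of these 3 genes was called by limma in any comparison without replicate number in the model. With the replicate block between phases, limma called Cdkn1a (adjusted p = 0.0203) and Mdm2 (adjusted p = 0.0213). In the authors' deposited table for siC, Cdkn1a was −0.29 (adjusted p = 0.00211) and Mdm2 −0.32 (adjusted p = 0.000362). Neither passed in their deposited table for siTdg, with Cdkn1a at −0.30 (adjusted p = 0.113) and Mdm2 at −0.29 (adjusted p = 0.121). Nor did they at 0 h, with Cdkn1a at −0.16 (adjusted p = 0.226) and Mdm2 at −0.01 (adjusted p = 0.951). In the authors' values at 0 h Trp53 was 0.22 (adjusted p = 0.0350). Epithelial markers lay lower in the same libraries as Perp. Of 9 listed, 5 were tested, all below 0 with a median of −0.38, and Epcam fell by 0.53 (limma adjusted p = 0.0416), a call lost without the filter and without 7 of the 8 libraries in turn. Their summed level ranged from 207.0 to 223.0 RPKM over the G2M libraries and from 230.3 to 245.4 RPKM over the G1 libraries, none was at 0, and their part in the Perp result was not tested. Most of that sum was Cdh1, whose phases overlapped, at 169.7 to 180.8 RPKM in G2M and 176.0 to 191.3 RPKM in G1.

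With siTdg, no gene of the 10 passed the test in ESCs at either time. Of 12190 genes, limma called 0% at 48 h and at 96 h, with 54 and 11 at an unadjusted p under 0.05. None of those was among the 10 genes, and limma-voom called 0 as well. Tdg, the target of the siRNA, was at −2.12 in log2 at 48 h (95% CI −2.87 to −1.37) and was not called either. This limma test therefore missed a change of that size at 48 h, and a lack of calls there does not exclude smaller ones. The authors' own model did call Tdg at 48 h, at −2.18 (adjusted p = 0.000176). Bbc3 was at 9.49 and 6.59 RPKM with siTdg at 48 h, against 12.7 and 7.59 with siC, a log2 difference of −0.29 (95% CI −1.20 to 0.61, limma adjusted p = 1). At 96 h it was at 13.0 and 8.29 RPKM with siTdg, against 14.9 and 9.002 with siC. Perp was at 13.2 and 13.0 RPKM with siTdg at 48 h, against 14.7 and 9.86 with siC. At 96 h Perp was at 17.1 and 17.4 RPKM with siTdg, against 21.7 and 19.5 with siC, and it was the single gene of 9 without overlap between the siRNAs, which 9.02% of all genes lacked too. Its log2 difference at 96 h was −0.25 (95% CI −0.76 to 0.27), and it was −0.36 relative to the effect at 48 h (95% CI −1.09 to 0.37, limma adjusted p = 1). All 9 genes tested lay below 0 at 96 h, with a median of −0.16 against 0.0041 over all genes, and 6 of 9 at 48 h, with a median of −0.08 against −0.014. At 96 h the same-numbered ratio of siTdg to siC was below 1 for each of these 9 genes, except Eda2r in replicate 2 (1.04). At 48 h such ratios ran both ways, and the share of all genes was not computed. Leaving out single libraries turned both medians, but it also unbalances the replicate numbers. Same-numbered libraries deviated together (Pearson r over genes of 0.851 at 48 h and 0.934 at 96 h), and the part of replicate number was not tested. At 96 h, leaving out replicate 1 of siC put 3 of 9 below 0 (median 0.14), leaving out replicate 2 of siTdg did the same (median 0.15), and the median was −0.32 when replicate 2 of siC was left out. At 48 h, 2 of 9 lay below 0 without siC replicate 1 (median 0.07), 3 without siTdg replicate 2 (median 0.16) and 9 without siC replicate 2 (median −0.22). For the mean of both times the values ran from −0.22 for Bbc3 to 0.02 for Eda2r, with Pmaip1 at −0.19 (95% CI −0.61 to 0.23). The authors' deposited tables likewise held 0 of 8 genes with an adjusted p at 48 h and 0 of 7 at 96 h, where 1.35% and 0.144% of genes passed.

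In sorted ESCs, where Tdg itself was lower by 2.61 in log2 with siTdg (limma adjusted p = 0.0027), it was the single gene called for the mean of both phases, 0.00802% of 12462, and no gene of the 9 tested passed. Bax was at 227.0 and 233.5 RPKM in siTdg G2M cells, against 222.7 and 208.9 in siC G2M cells. In G1 it was at 221.7 and 259.2 RPKM with siTdg, against 213.3 and 202.8 with siC. In each phase both siTdg libraries lay above both siC libraries, and the mean log2 difference of Bax was 0.15 (95% CI −0.04 to 0.33, limma adjusted p = 0.838). Sorted siTdg and siC libraries were scaled separately. Size factors common to them changed no call of these genes, but overlap was examined on the separate scales only. Perp did not overlap in G1 and Pmaip1 did not overlap in G2M, each higher with siTdg. Libraries failed to overlap for 25.7% of genes in G1 and 25% in G2M, so 2 of 9 in each phase is near the background. For the mean of both phases Perp was at 0.24 (95% CI −0.01 to 0.49) and Pmaip1 at 0.21 (95% CI −0.20 to 0.61), and Apaf1 was lowest at −0.15 (95% CI −0.49 to 0.20). Epithelial markers were on the side of Perp here, 4 of 5 tested above 0 with a median of 0.23 and none called, and their part was not tested. In unsorted ESCs they were on the other side. At 48 h their median was −0.12 (2 above and 4 below 0), with Perp at 0.11. At 96 h it was 0.05 (4 above and 2 below 0), with Perp at −0.25. The median over the 9 genes was −0.03, against 0.0085 over all genes. Leaving out 1 library also unbalances the replicate numbers, whose part was not tested. The median changed sign with the library left out. It was between 0.09 and 0.12 without replicate 1 of siC G1 (8 of 9 above 0), replicate 1 of siC G2M, replicate 2 of siTdg G1 or replicate 2 of siTdg G2M, and between −0.11 and −0.07 without any of the other 4 libraries.

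**Figure D4:**
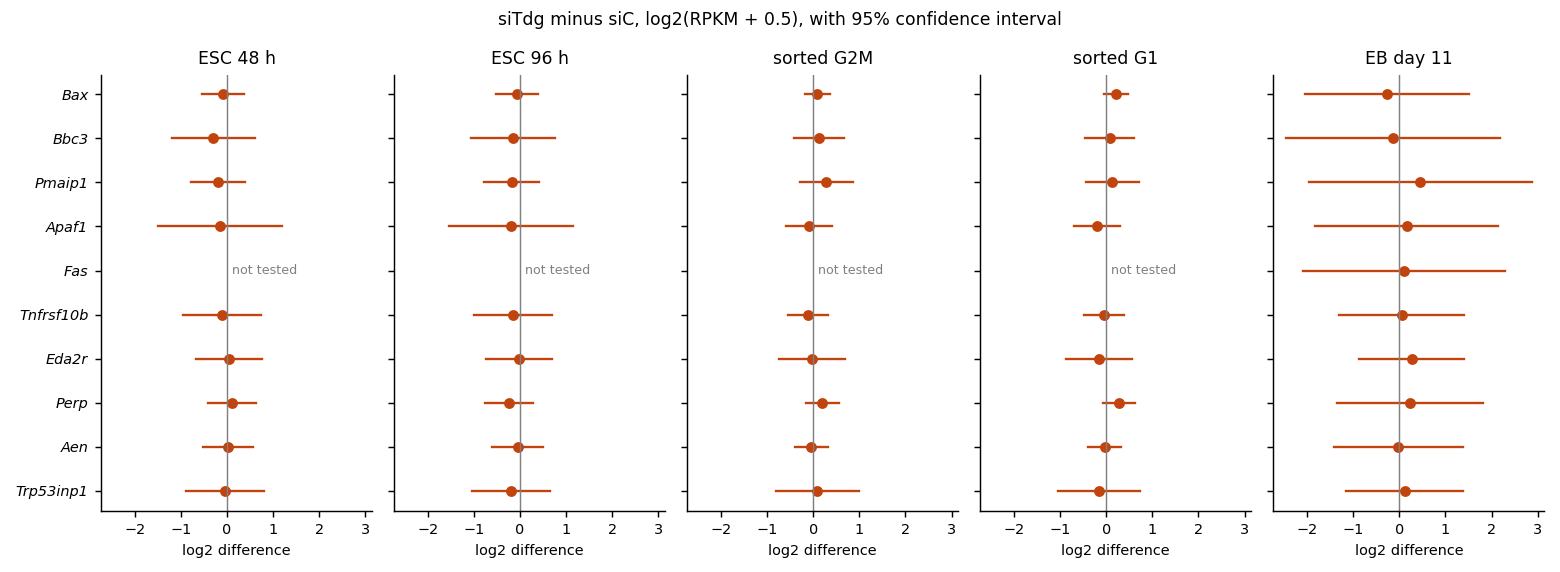
siTdg minus siC for each gene in log2(RPKM + 0.5) with 95% confidence intervals, in ESCs at 48 h and 96 h, in sorted G2M and G1 cells and in EBs at day 11. Every interval includes 0, and intervals are widest in EBs, where Pmaip1 runs from −1.96 to 2.88; Fas was tested in EBs alone.

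In EBs none of the 10 genes was called by limma, and 0% of 13300 genes were called by limma, with 20 at an unadjusted p under 0.05 and 0 called by limma-voom. Pmaip1 had the largest difference at 0.46 (95% CI −1.96 to 2.88, limma adjusted p = 1), and it was above its siC library in both replicate numbers, at 7.55 and 1.83 RPKM with siTdg, against 5.18 and 1.25 with siC. Eda2r was at 0.27 (95% CI −0.87 to 1.40), with 17.6 and 15.1 RPKM with siTdg, against 16.8 and 10.8 with siC. Bax was at −0.27 (95% CI −2.05 to 1.51). Of the 10 genes 7 lay above 0, with a median of 0.11 against 0.020 over all genes. Without siC replicate 2 or siTdg replicate 1, 2 and 3 lay above 0 (medians −0.29 and −0.24), and without siC replicate 1 or siTdg replicate 2, 8 did in each case (medians 0.54 and 0.40). Leaving out 1 library also unbalances the replicate numbers, whose part was not tested. Same-numbered EB libraries of the 2 siRNAs deviated together, with a Pearson r of 0.951 over genes. The libraries of the 2 siRNAs overlapped for all 10, where 9.29% of genes did not overlap. The authors' deposited table for EBs called 0 of the 10, where 0.0745% of genes passed. Among the 5 lists of related genes (other p53 targets linked to apoptosis, the BCL2 family, apoptosome and caspases, the death receptor pathway, p53 and its regulators), limma called 0 members in each comparison of siTdg with siC, where it called 0% of genes in unsorted ESCs and EBs and 0.00802% in sorted ESCs.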

How the data were processed

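RNA was depleted of ribosomal RNA and sequenced with a stranded total RNA kit, per the labels' protocols. TopHat, DESeq2, Bowtie, DiffBind and the builds mm9 and dm3 are named in the submitters' processing notes, and for the counting tool and gene annotation, nothing is given in those sources. The 5 RPKM tables used were deposited by the authors and scaled independently of each other. The authors also deposited tables of their own comparisons with mean normalised counts (a signal over libraries), log2 fold changes, and p-values with adjusted p-values, per the file headers. Signs of the authors' log2 values are given here as the group named first minus the other, and at 0 h the direction was set by the mitotic genes Top2a, Aurkb, Prc1 and Kpna2. Columns of RPKM that could be matched to no sample (4, at 0 h) were left out, and the 8 RNA samples of day 9 EBs were not analysed here. Peaks were not matched to the genes here, since no gene annotation of their build was at hand.

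Reads were recovered from the deposited RPKM, and 100.0% of positive values came out whole within 0.01 reads. The tables of sorted cells gave gene lengths within 0.1% for 19249 of 19249 genes, as required before siTdg and siC could be compared inside a phase. Groups came from sample titles. The main test was limma (version 3.58.1, R 4.3.3) applied to log2(RPKM + 0.5), a scale that understates changes of low genes. It kept genes averaging 0.5 RPKM or more, used a mean-variance trend and had no term for replicate number. One model held 8 unsorted ESC libraries, one 8 sorted libraries and one 4 EB libraries, and two-sided p-values were adjusted (Benjamini-Hochberg) over all genes of a comparison, for 12 comparisons. The fit was tested on simulated data. Text names the 10 genes in each comparison, Tdg, Trp53, Cdkn1a and Mdm2 as checks, called members of lists, and the 3 genes most like each of at most 4 of the 10. The genes, the lists and the tests were chosen with earlier results of these data known. Alternatives were other pseudocounts, no filter, other scalings, no trend, a replicate block, limma-voom on recovered reads, fewer groups and each library left out.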

Additional observations from a re-analysis of the deposited data

How the results depend on the processing

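Calls of the 10 genes changed under 2 settings besides those that leave out a library. Without the filter on low values 0 of them were called between phases for the mean of both siRNAs, and with a replicate block 3 were (Perp, Eda2r and Pmaip1), with 1, Perp, called in each siRNA alone. Replicate numbers give only 2 pairs of libraries between any 2 groups, and the labels do not say what they mark. Deviations of same-numbered libraries from their group means had a Pearson r of 0.534 to 0.951 over genes, so the block is given as a hint from the data. In limma with it, genes called were 280 at 48 h, 15 at 96 h, 549 for their mean, 14 for their difference, 150 in EBs, 614 between siC phases, 985 between siTdg phases, 2575 for the mean of phases, and 2, 3 and 148 for siTdg in G1, in G2M and in their mean. No filter gave 4 genes at 96 h, 4 for the ESC mean, 4 for the difference between times, 7 for the difference between siRNAs in the phase effect, and 6, 4 and 8 for siTdg in G1, in G2M and in their mean. Models of the 2 groups alone gave 3 between siC phases and 0 between siTdg phases, and 0 for siTdg in G1 and in G2M. With 1 library left out, where a lone library is assumed to vary like the others, counts ranged from 0 to 1 in EBs, 0 to 17 between siC phases, 0 to 8 between siTdg phases, 21 (without siC G1 replicate 1) to 139 (without siTdg G1 replicate 1) for their mean, with 0 to 1 of the 10 genes, and 0 to 1 for siTdg in G1 and in G2M.

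Of 263 values of single genes under the settings that keep all libraries, 254 kept direction and call. Apaf1 between phases reversed with quantile normalization, to −0.0012 in log2. Size factors common to the 8 sorted libraries, an alternative chosen after seeing the data, changed no call of the 10 genes. Leaving out 1 library, which also unbalances the replicate numbers, turned the sign of small uncalled differences. The range was −0.65 to 0.058 for Bbc3 at 48 h, −0.13 to 0.16 for Eda2r in the ESC mean, and −0.28 to 0.13 for Perp in the difference between siRNAs. In EBs it was −0.44 to 1.35 for Pmaip1, −0.76 to 0.22 for Bax and −0.046 to 0.58 for Eda2r. Between phases it was −0.059 to 0.053 for Bax, −0.079 to 0.19 for Apaf1 and −0.43 to 0.022 for Trp53inp1. Causes were not tested. Matching of peaks to the genes, with its stricter settings, was not run. Fas in ESCs, at 4 to 30 reads a library, is limited by depth.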
